A study of Homo sapiens with 12 samples.

Results

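PEG10, SGCE and 5 other imprinted genes (MEST, PLAGL1, NDN, PEG3 and GRB10) were examined in 12 arrays of a human breast epithelial line. The genes were taken by symbol, with the probe set of highest mean over the 12 arrays standing for each gene. PEG10 had been picked because it was among the genes that fell most under heregulin, so its levels are given as a description and its p-values support nothing about the choice. Of the 7 genes, 6 had a probe set listed with that gene alone, and they are 6 of the 18417 genes tested. Each of the 6 had exactly 1 such probe set, so the rule on the mean made no choice. PEG3 shared its probe set with the gene ZIM2, and that probe set is described apart.

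The cells were MCF10A, an immortalised line of normal breast epithelium, stably transfected with a full-length chimeric human HER2 that carries FKBP and HA tags. All 4 groups carry this receptor, and each group holds 3 arrays: untreated, AP1510, TGF-alpha and heregulin. AP1510 is a synthetic ligand that joins FKBP-tagged proteins and so pairs the chimeric HER2 with itself. TGF-alpha binds EGFR, and heregulin binds HER3 and HER4, which can pair with HER2. Medium for upkeep held 5% serum and 20 ng/ml EGF, and both were taken away 24 hours before ligand. Cholera toxin (100 ng/ml), hydrocortisone (500 ng/ml) and insulin (10 microgram/ml) stayed in the medium of every group, and RNA was taken 48 hours after ligand. Ligand dose, vehicle, batch, how many clones made up the line, and the time at which untreated cells were harvested were not found in the labels. Replicate numbers 1 to 3 follow the order of the samples in the deposit and only name arrays. Triplicate 100 mm dishes were used. In the main fit each adjusted p-value rests on the spread of dishes and their arrays within groups. That spread is pooled over the 4 groups and drawn toward that of all genes, and it may be partly technical.

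An imprinted gene is one that is read mainly from the copy inherited from one parent, under the control of a methyl mark on DNA that differs between the copies and is set in the egg or sperm. Such genes often lie in clusters that share one control region. PEG10 and SGCE are a head-to-head pair on chromosome 7, read in opposite directions from a shared start region, and both are read from the paternal copy. PEG10 is a domesticated retrotransposon gene that still makes gag-like and pol-like proteins and is needed for the placenta. SGCE encodes epsilon-sarcoglycan, a membrane protein of the dystrophin complex, and its loss causes myoclonus-dystonia. The comparison asks whether these neighbours moved together, and whether the other imprinted genes moved with them.

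Values are log2 intensities after RMA, a method that corrects background, equalises the arrays and summarises probes. Medians of the 12 arrays ran from 5.33 to 5.44. Of the epithelial markers, 8 of 10 were measured, and their summed intensity ran from 11923 to 12734 in untreated, 13200 to 14626 in AP1510, 19732 to 21020 in TGF-alpha and 13619 to 14209 in heregulin arrays. EPCAM, an epithelial adhesion protein, was 2.13-fold lower under heregulin than untreated (adjusted p = 0.0025), and the keratins KRT5 and KRT14 were 1.77-fold and 1.55-fold higher. Over all genes tested, 3.45% were called higher and 5.06% lower under heregulin. Of 5 fibroblast markers, 1 passed the test under heregulin: DCN, the matrix proteoglycan decorin, was 3.01-fold higher (adjusted p = 9.1e-07). Summed fibroblast markers ran from 299 to 333 in untreated and 578 to 669 in heregulin arrays, against 309 to 351 under AP1510 and 241 to 256 under TGF-alpha. Of 3 endothelial markers, CDH5 and PECAM1 were lower under heregulin, calls lost in 2 and 4 of 12 refits without 1 array (adjusted p up to 0.069 and 0.10, CDH5 without untreated replicate 2 or heregulin replicate 1, PECAM1 without untreated replicate 1 or 3 or heregulin replicate 2 or 3). The summed endothelial level ran from 325 to 373 against 437 to 447 untreated; it was 447 to 479 under AP1510 and 434 to 467 under TGF-alpha. Under TGF-alpha, 6 of the 8 epithelial markers were called higher and 1 lower, where 12.5% of all genes were higher and 13.4% lower. DCN (adjusted p = 1.8e-04) and CDH5 (adjusted p = 6.3e-05) were also lower there, and both calls held in all 12 refits. AP1510 called KRT5 and KRT14 higher, where 0.771% of all genes were called higher and 0.7% lower. The KRT5 call was lost in 3 of 12 refits (adjusted p up to 0.13). The 2 measured leukocyte markers summed to between 27 and 33 on all arrays. The part of these markers in the results that follow was not tested. In bulk RNA, fewer cells of a type and less RNA per cell cannot be told apart.

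PEG10 stood highest under AP1510 and lowest under heregulin. Its log2 level was 9.27, 9.35 and 9.40 in the 3 untreated arrays and 9.47, 9.91 and 9.90 in the AP1510 arrays. It was 8.73, 8.79 and 8.92 in the TGF-alpha arrays and 6.80, 6.54 and 7.21 in the heregulin arrays. No 2 groups overlapped: every AP1510 array lay above every untreated array, every TGF-alpha array below, and every heregulin array lower still. Group means were 9.34 ± 0.07 (SD, n = 3) untreated, 9.76 ± 0.25 (SD, n = 3) with AP1510, 8.81 ± 0.10 (SD, n = 3) with TGF-alpha and 6.85 ± 0.34 (SD, n = 3) with heregulin.

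Under heregulin PEG10 fell by 2.49 ± 0.15 (SE) on the log2 scale against untreated, a level 5.62-fold lower (adjusted p = 2.4e-08). Only 2 of the 18417 genes had a lower log2 change in that comparison, in which PEG10 had rank 3 from the lowest. TGF-alpha gave a smaller fall, 0.53 ± 0.15 (SE) on the log2 scale or 1.44-fold (adjusted p = 0.013), and PEG10 there had rank 1123 from the lowest. That call missed the threshold without untreated replicate 3 (adjusted p = 0.051) and without TGF-alpha replicate 1 (adjusted p = 0.054). AP1510 gave a log2 change of 0.42 ± 0.15 (SE), 1.34-fold higher, which did not pass the test (adjusted p = 0.24; 95% interval 0.11 to 0.74 before adjustment). All 3 of these comparisons use the same untreated arrays.

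The treatments also separated PEG10 from one another. Heregulin arrays were 7.53-fold lower than AP1510 arrays (adjusted p = 3.7e-09) and 3.90-fold lower than TGF-alpha arrays (adjusted p = 8.1e-08). TGF-alpha arrays were 1.93-fold lower than AP1510 arrays (adjusted p = 1.7e-04). The order of PEG10 levels was therefore AP1510, untreated, TGF-alpha and heregulin from high to low, and its first step, between AP1510 and untreated, is the one that did not pass.

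**Figure D1:**
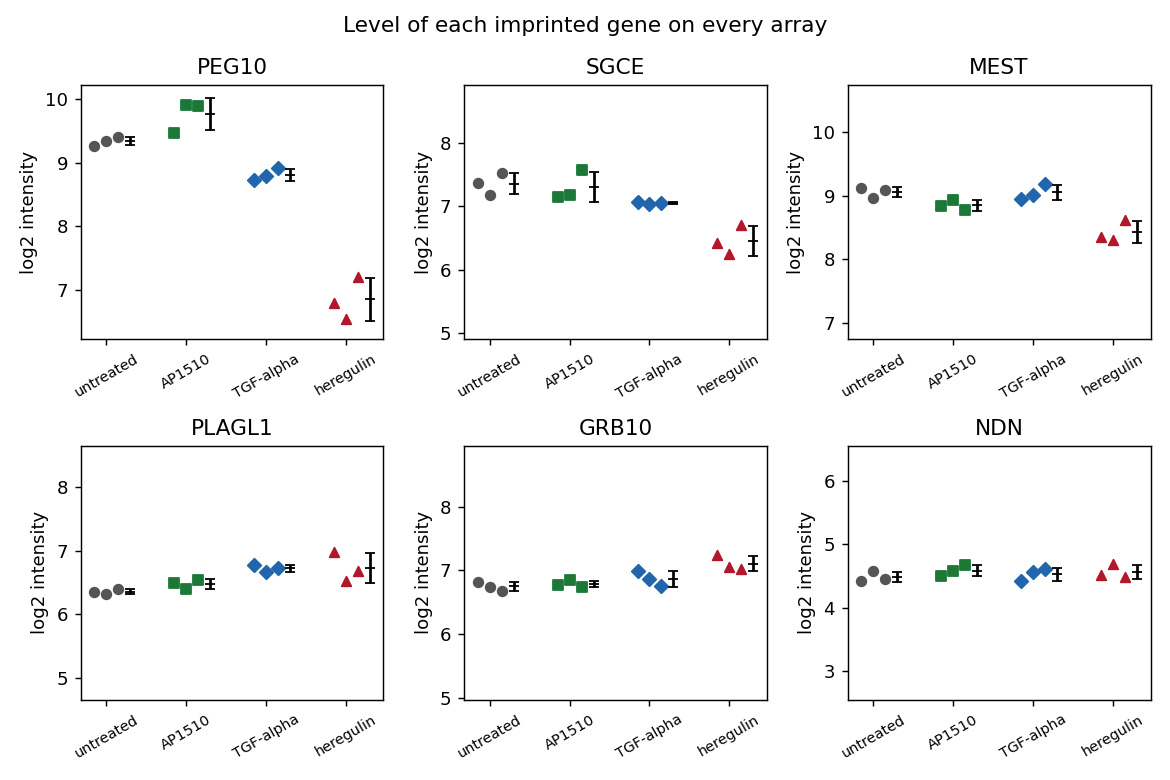
Log2 intensity of the 6 measured imprinted genes by treatment group, 1 panel per gene; points are single arrays (3 per group), the horizontal bar is the group mean and the vertical bar its SD. PEG10 drops to between 6.54 and 7.21 in the heregulin arrays, SGCE and MEST are also lowest there, PLAGL1 and GRB10 are highest or near highest there, and NDN stays between 4.42 and 4.68.

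SGCE, the partner of PEG10 across the shared start region, fell under heregulin as well, but by less. Its log2 level was 7.37, 7.18 and 7.53 untreated and 7.15, 7.18 and 7.58 with AP1510. It was 7.06, 7.04 and 7.05 with TGF-alpha and 6.42, 6.24 and 6.71 with heregulin. Untreated and AP1510 arrays overlapped, the TGF-alpha arrays lay just below both, and the heregulin arrays lay below all others. Means were 7.36 ± 0.17 (SD, n = 3), 7.30 ± 0.24 (SD, n = 3), 7.05 ± 0.0082 (SD, n = 3) and 6.46 ± 0.23 (SD, n = 3) in that order of groups.

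Against untreated, SGCE under heregulin was 1.87-fold lower, a log2 change of -0.90 ± 0.13 (SE) with adjusted p = 2.8e-04, at rank 123 from the lowest of all genes tested. Under TGF-alpha its log2 change of -0.31 ± 0.13 (SE) did not pass (adjusted p = 0.11); it passed when only those 2 groups were fitted (adjusted p = 0.032). AP1510 gave a log2 change of -0.06 ± 0.13 (SE), with a 95% interval of -0.33 to 0.22 (adjusted p = 0.94). Heregulin arrays were 1.80-fold below AP1510 arrays (adjusted p = 6.9e-04) and 1.51-fold below TGF-alpha arrays (adjusted p = 0.0032), while TGF-alpha and AP1510 did not differ by the test (log2 change -0.25, adjusted p = 0.22).

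The neighbours were compared directly by subtracting the log2 level of SGCE from that of PEG10 on each array. The size of this difference has no meaning of its own, since the 2 probe sets differ in brightness. Its change between groups measures unequal change of the 2 array signals. Whether the 2 probe sets respond alike to a change in RNA was not tested. Unequal change of RNA and unequal probe response therefore cannot be told apart here. It was 1.90, 2.16 and 1.88 untreated, 2.32, 2.73 and 2.32 with AP1510, 1.67, 1.74 and 1.87 with TGF-alpha, and 0.38, 0.29 and 0.50 with heregulin. The heregulin arrays stood far below all others and the AP1510 arrays above all others. TGF-alpha arrays lay just below the untreated ones.

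The difference varied over the 4 groups more than within them (F = 92.7, exact permutation p = 6.49e-05, the smallest that 15400 arrangements of the arrays can give). PEG10 had been picked for its fall under heregulin, and that fall carries most of this value. Against untreated, PEG10 minus SGCE changed by -1.59 on the log2 scale under heregulin (95% interval -1.89 to -1.29). Under AP1510 it changed by 0.48 ± 0.13 (SE; 95% interval 0.18 to 0.78), and under TGF-alpha by -0.22 (95% interval -0.52 to 0.08), an interval that holds 0. Leaving out 1 array at a time gave F between 61.1 and 149. In the heregulin group replicate 3 was highest and replicate 2 lowest for PEG10, SGCE and MEST alike. The other groups were mixed. In the AP1510 group PEG10 and SGCE were both lowest in replicate 1, but PEG10 was highest in replicate 2 and SGCE in replicate 3. MEST was lowest there in replicate 3. Untreated replicate 3 was highest for both PEG10 and SGCE, but PEG10 was lowest in replicate 1 and SGCE in replicate 2. TGF-alpha replicate 1 was lowest for PEG10 and highest for SGCE.

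**Figure D2:**
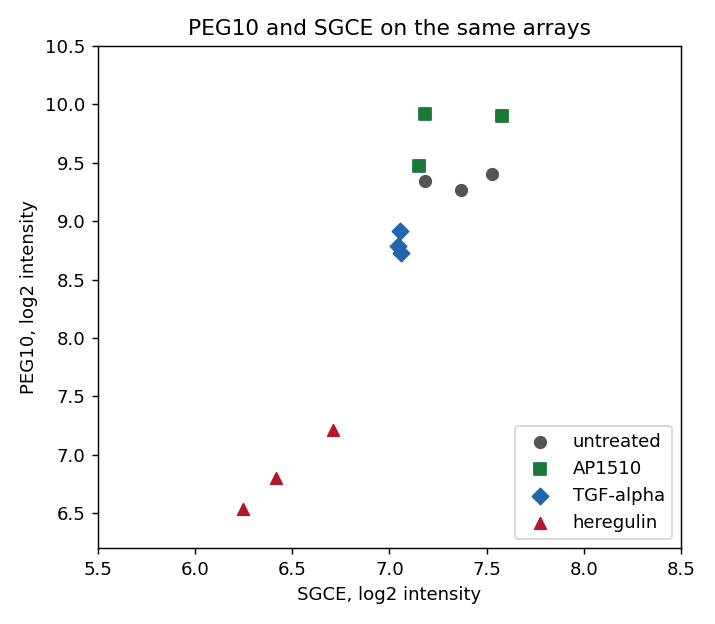
Log2 intensity of PEG10 (vertical axis) against that of SGCE (horizontal axis), 1 point per array and 1 colour per treatment group. The heregulin arrays sit at the lower left, low for both genes; AP1510 and untreated arrays share a range of SGCE levels while the AP1510 arrays lie higher for PEG10, 9.47 to 9.91 against 9.27 to 9.40.

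The next genes turn from the PEG10 pair to members elsewhere in the genome. Promoters in RefSeq (GRCh38.p14) were at hand for MEST, PLAGL1, NDN and GRB10, with 16 starts in all; PEG10, SGCE and PEG3 are named only. Imprint marks are methyl groups on CpG, a C followed by a G, and the protein ZFP57 keeps them by binding a methylated hexamer, TGCCGC. Read on the opposite strand, this hexamer is spelled GCGGCA. It was searched on both strands in the 300 bases from 250 before to 50 after each start, with overlapping matches counted apart, and 16.7% of all 35116 such windows hold it. Of the 16 windows of these genes, 7 hold it, and each of the 4 genes has at least 1 such window. MEST, PLAGL1 and GRB10 have 5 windows each, and the 16.7% is a share of windows, not of genes. Some MEST windows overlap, so 1 hexamer can be counted in more than 1 window. The counts were not set against windows of like CpG content, and nothing is read from them. The start with the most CpG is shown for the 3 genes that passed the test under heregulin, 1 that fell (MEST) and 2 that rose (PLAGL1 and GRB10), as the 250 bases before the start, 5′ to 3′ on the gene's strand, with each CG in capitals. They lie at chr7:130491835-130492084 (MEST, plus strand), chr6:144008260-144008509 (PLAGL1, minus strand) and chr7:50792875-50793124 (GRB10, minus strand).
MEST: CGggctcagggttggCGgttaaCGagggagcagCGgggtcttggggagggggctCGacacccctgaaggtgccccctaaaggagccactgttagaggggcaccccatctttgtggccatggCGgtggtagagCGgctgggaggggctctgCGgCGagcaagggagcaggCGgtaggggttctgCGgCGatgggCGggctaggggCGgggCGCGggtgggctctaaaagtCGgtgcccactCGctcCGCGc
PLAGL1: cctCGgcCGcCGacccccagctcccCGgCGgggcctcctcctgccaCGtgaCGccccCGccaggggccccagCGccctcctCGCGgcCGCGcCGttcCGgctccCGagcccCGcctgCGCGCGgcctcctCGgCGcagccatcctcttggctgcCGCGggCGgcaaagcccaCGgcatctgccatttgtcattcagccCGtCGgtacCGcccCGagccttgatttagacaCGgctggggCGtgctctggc
GRB10: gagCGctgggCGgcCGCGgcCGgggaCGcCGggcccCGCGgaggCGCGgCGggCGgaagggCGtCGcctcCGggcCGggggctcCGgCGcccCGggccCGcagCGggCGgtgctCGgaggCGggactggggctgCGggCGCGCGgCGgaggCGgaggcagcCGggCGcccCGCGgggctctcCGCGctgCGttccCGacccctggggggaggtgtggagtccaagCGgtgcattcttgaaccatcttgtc
The 300-base windows hold 25 CpG and 3 hexamers at MEST, 39 CpG and 2 hexamers at PLAGL1, and 49 CpG and 0 hexamers at GRB10, against a median of 14 CpG over all windows. The 3 hexamers at MEST lie outside the 250 bases printed, and both of those at PLAGL1 lie within them. Fewer CpG were found in 68% of all windows than at MEST, in 91.3% than at PLAGL1 and in 98.4% than at GRB10. NDN has 1 start in the table, with 35 CpG and 1 hexamer. These letters describe the windows alone: the arrays do not tell which start a transcript came from, and methylation was not measured.

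MEST, a paternally read gene for a protein of the hydrolase fold family on the long arm of chromosome 7, was lower under heregulin than in every other group. Its log2 level was 9.12, 8.97 and 9.09 untreated, 8.84, 8.94 and 8.77 with AP1510, 8.95, 9.02 and 9.19 with TGF-alpha, and 8.36, 8.30 and 8.62 with heregulin. The heregulin arrays lay below all other arrays. Every AP1510 array lay below every untreated and every TGF-alpha array, and the TGF-alpha arrays overlapped the untreated ones. Heregulin against untreated gave a log2 change of -0.63 ± 0.10 (SE), 1.55-fold lower (adjusted p = 6.3e-04). TGF-alpha gave -0.01 ± 0.10 (SE; 95% interval -0.22 to 0.21, adjusted p = 0.97) and AP1510 -0.21 ± 0.10 (SE; adjusted p = 0.46).

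MEST under heregulin was also 1.54-fold below TGF-alpha (adjusted p = 2.2e-04). It was 1.34-fold below AP1510 (adjusted p = 0.017). That last call was lost when AP1510 replicate 2 was left out (adjusted p = 0.082), and likewise heregulin replicate 1 (0.054) or heregulin replicate 2 (0.068), with array weights (0.053), and when only those 2 groups were fitted (0.065). With array weights its log2 change was -0.27 in place of -0.42.

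PLAGL1, a zinc finger regulator that restrains growth and is read from the paternal copy, went the other way. Its log2 level was 6.36, 6.33 and 6.39 untreated and 6.49, 6.40 and 6.54 with AP1510. It was 6.77, 6.67 and 6.73 with TGF-alpha and 6.98, 6.53 and 6.68 with heregulin. Every TGF-alpha and heregulin array lay above every untreated array, and heregulin replicate 1 was the highest of all 12, while heregulin replicate 2 lay just below AP1510 replicate 3, the highest AP1510 array.

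PLAGL1 rose under TGF-alpha by 0.36 ± 0.10 (SE) on the log2 scale, 1.29-fold (adjusted p = 0.014), and under heregulin by 0.37 ± 0.10 (SE), also 1.29-fold (adjusted p = 0.034). The call under TGF-alpha missed the threshold without TGF-alpha replicate 1 (adjusted p = 0.052). The call under heregulin missed it without untreated replicate 1 (0.094), 2 (0.096) or 3 (0.078), without heregulin replicate 1 (0.13) or 3 (0.058), and with only those 2 groups fitted (0.11). Without heregulin replicate 1 its log2 change was 0.24 in place of 0.37. AP1510 gave a log2 change of 0.12 (adjusted p = 0.77), and heregulin and TGF-alpha differed by 0.01 (adjusted p = 0.98).

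GRB10, an adaptor that damps insulin and IGF receptor signalling and is imprinted by tissue, was highest under heregulin. Its log2 level was 6.82, 6.75 and 6.68 untreated, 6.78, 6.84 and 6.75 with AP1510, 6.99, 6.86 and 6.75 with TGF-alpha, and 7.25, 7.06 and 7.02 with heregulin. The heregulin arrays lay above all others, and the remaining groups overlapped. Against untreated its log2 change under heregulin was 0.36 ± 0.09 (SE), 1.28-fold higher (adjusted p = 0.021). The call missed the threshold without untreated replicate 2 (adjusted p = 0.059) or 3 (0.094), without heregulin replicate 1 (0.086), and with only those 2 groups fitted (0.062).

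GRB10 gave a log2 change of 0.04 under AP1510 (adjusted p = 0.94) and 0.12 under TGF-alpha (adjusted p = 0.43). Heregulin against AP1510 was 1.25-fold higher at adjusted p = 0.046, close to the threshold, and missed it in 9 of 12 refits that each left out 1 array, holding only without TGF-alpha replicate 1, TGF-alpha replicate 3 or heregulin replicate 3. It also missed with the arrays centred (0.059) and with only those 2 groups fitted (0.12). Heregulin against TGF-alpha, a log2 change of 0.24, did not pass (adjusted p = 0.074); it passed without dim genes (0.044) and without TGF-alpha replicate 1 (0.046).

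NDN, which encodes the growth-restraining protein necdin of the Prader-Willi region, lay between 4.42 and 4.68 on all 12 arrays. Its group means stayed below 5.37, the median of all values, which is where the filter on dim genes was set. Its log2 changes were 0.10 under AP1510 (adjusted p = 0.78), 0.04 under TGF-alpha (0.81) and 0.08 under heregulin (0.70). The groups overlapped and no comparison of NDN passed.

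Probe set 8039607, listed with both ZIM2 and PEG3, cannot be assigned to either gene. Its log2 level was 5.08, 5.00 and 4.75 untreated, 4.93, 5.03 and 5.05 with AP1510, 5.17, 5.17 and 5.10 with TGF-alpha, and 5.30, 5.39 and 5.15 with heregulin. The heregulin and TGF-alpha arrays lay above all untreated ones, and the AP1510 arrays overlapped the untreated ones. In the fit to which probe sets of several genes were added, its log2 change under heregulin was 0.33 ± 0.10 (SE), 1.26-fold higher (adjusted p = 0.046). That call was lost in 10 of 12 refits without 1 array (adjusted p up to 0.21, without untreated replicate 3), holding only without untreated replicate 1 or heregulin replicate 3. Its group means, like those of NDN, all lay below the limit for dim genes. TGF-alpha gave 0.20 (adjusted p = 0.15) and AP1510 0.06 (adjusted p = 0.90).

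Counted over the 6 measured genes, heregulin against untreated called 5: PEG10, SGCE and MEST lower and PLAGL1 and GRB10 higher. Over all genes tested 8.5% were called in that comparison, 3.45% higher and 5.06% lower; PEG10 was chosen from it, so nothing is read from the count. TGF-alpha against untreated called 2 of 6, PEG10 lower and PLAGL1 higher, where 26% of all genes were called, 12.5% higher and 13.4% lower. AP1510 against untreated called 0 of 6 with limma, where 1.47% of all genes were called (0.771% higher and 0.7% lower); 1 of the 6, PEG10, had an unadjusted p under 0.05. Heregulin against AP1510 called 4 of 6, 3 lower and GRB10 higher, where 7.23% of all genes were called, 3.27% higher and 3.95% lower. Heregulin against TGF-alpha called PEG10, SGCE and MEST, all lower, where 21.6% of all genes were called, 9.88% higher and 11.8% lower. TGF-alpha against AP1510 called PEG10 alone, lower, where 21.6% of all genes were called, 11.2% higher and 10.4% lower. The 6 genes did not share a direction under heregulin, and SGCE and MEST were the measured members that fell there beside PEG10.

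**Figure D3:**
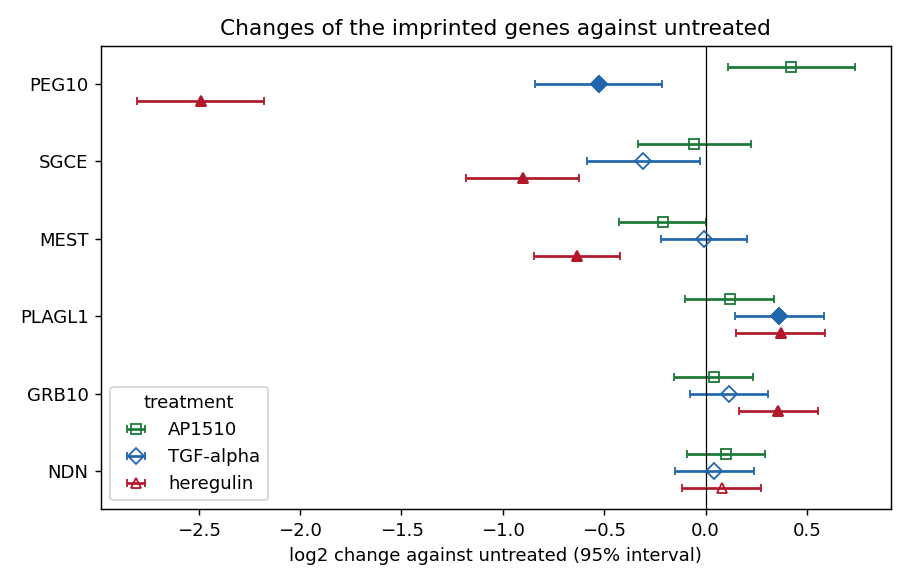
Log2 change against untreated for the 6 measured imprinted genes under AP1510, TGF-alpha and heregulin; points are estimates from the fit over 4 groups of 3 arrays, bars are 95% intervals, and filled points passed an adjusted p of 0.05. PEG10 under heregulin, at -2.49, lies farthest from 0; SGCE and MEST lie below 0 there and PLAGL1 and GRB10 above.

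To see whether the fall of PEG10 extended along the chromosome, all tested genes within 1 Mb were taken from the RefSeq gene table. Of 45 genes of any kind there, 14 were tested, in the order TFPI2, GNGT1, GNG11, BET1, COL1A2, CASD1, SGCE, PEG10, PPP1R9A, PON1, PON3, PON2, ASB4 and PDK4. Besides PEG10 and SGCE, 1 of the 12 others fell and 1 rose under heregulin, where 8.5% of all genes were called. CASD1, an enzyme that adds acetyl groups to sialic acid, was 1.59-fold lower (log2 change -0.67 ± 0.17 SE, adjusted p = 0.023); its span overlaps that of SGCE in RefSeq. The CASD1 call missed the threshold without untreated replicate 1 (adjusted p = 0.084), untreated replicate 3 (0.12) or heregulin replicate 2 (0.09). PON2, an antioxidant enzyme of the paraoxonase family, was 1.76-fold higher (log2 change 0.82 ± 0.08 SE, adjusted p = 9.5e-06).

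Between PEG10 and PON2 lie PPP1R9A, PON1 and PON3, and none of these passed under heregulin. PPP1R9A, which encodes the actin-binding protein neurabin and is read from the maternal copy in some tissues, had a log2 change of -0.41 (adjusted p = 0.083). PON1 and PON3, the other paraoxonases, had log2 changes of 0.05 (adjusted p = 0.83) and 0.02 (adjusted p = 0.95). TFPI2, a protease inhibitor imprinted in placenta, gave 0.05 (adjusted p = 0.86). Its mean level of 3.09 lay below the limit of 5.37 for dim genes, so it cannot show whether it fell. COL1A2, a collagen chain of fibroblasts, gave 0.03 (adjusted p = 0.89). Levels of the other neighbours are not given here, and any dim gene among them has the same limit. ASB4, PDK4, BET1, GNG11 and GNGT1 gave log2 changes from -0.23 to 0.03 that did not pass. The median over the 12 was -0.04.

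TGF-alpha called 6 of the same 12 genes, 5 lower and 1 higher, where 26% of all genes were called. PDK4, a kinase that shuts glucose carbon out of the mitochondrion, was 2.95-fold lower (log2 change -1.56, adjusted p = 1.2e-08). PON3 was 1.74-fold lower (adjusted p = 6.3e-04), CASD1 1.66-fold lower (adjusted p = 0.0045) and PPP1R9A 1.62-fold lower (adjusted p = 9.8e-04). BET1, a membrane fusion protein of the Golgi, was 1.29-fold lower at adjusted p = 0.037 and lost its call when any of untreated replicates 1 and 3 and TGF-alpha replicates 1 and 3 was left out (adjusted p up to 0.17). PON2 was 1.35-fold higher (adjusted p = 0.001). Under AP1510, where 1.47% of all genes were called, only PDK4 passed among the 12, 1.79-fold lower (adjusted p = 4.3e-04), and it was not called under heregulin (log2 change -0.13, adjusted p = 0.50).

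**Figure D4:**
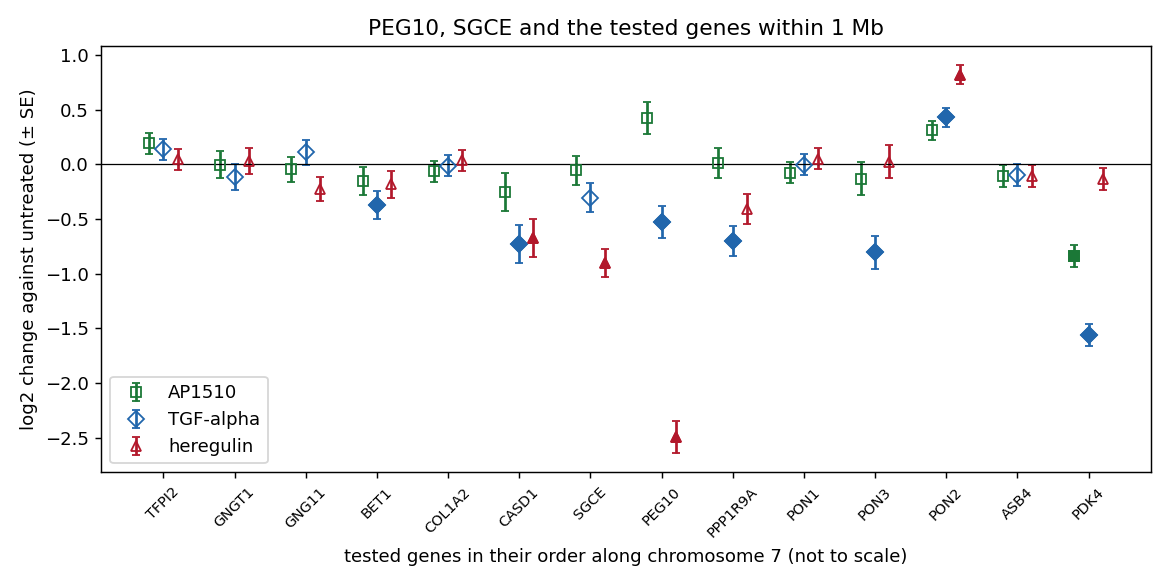
Log2 change against untreated for the 14 tested genes within 1 Mb of PEG10, placed in their order along the chromosome, with 1 series for each ligand; bars are SE and filled points passed an adjusted p of 0.05. Under heregulin the low points are PEG10, SGCE and CASD1 and the high point is PON2 at 0.82; under TGF-alpha PDK4 at -1.56 is lowest.

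Other imprinted genes of the genome were taken from a list of 34, of which 25 were measured with a probe set of their own. The other 9 were not tested: SNRPN, SNURF, IGF2, KCNQ1OT1, ZIM2, HYMAI, H19, SLC22A18 and MEG8. Mean log2 levels of the 25 ran from 3.09 to 8.54 with a median of 5.41, close to the limit of 5.37 for dim genes. The 13 paternally read ones had a median of 5.04. For the dim genes among the 25, a call that did not pass does not show that the gene stayed level. Under heregulin 1 of the 25 passed, against 8.5% of all genes. CPA4, a carboxypeptidase that lies in the same imprinted region as MEST and is read from the maternal copy, was 3.51-fold lower (log2 change -1.81, adjusted p = 2.2e-06). KLF14, a maternally read regulator of fat metabolism from that region, gave a log2 change of 0.15 (adjusted p = 0.46). The median log2 change was 0.014 over the 25 and 0.0070 over all genes tested. Under AP1510 limma called 0 of the 25, with 2 at an unadjusted p under 0.05, where 1.47% of all genes were called. CPA4 there gave a log2 change of -0.32 (adjusted p = 0.49).

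TGF-alpha called 4 of the 25, 3 lower and 1 higher, where 26% of all genes were called, 12.5% higher and 13.4% lower. CPA4 was 5.62-fold lower (log2 change -2.49, adjusted p = 1.6e-08), and PPP1R9A is the neighbour of PEG10 given before. NAP1L5, a paternally read gene of the nucleosome assembly family, was 1.26-fold lower at adjusted p = 0.032; it was lost when any of untreated replicates 1 and 3 and TGF-alpha replicates 1 and 2 was left out (adjusted p up to 0.17). CDKN1C, the maternally read inhibitor of cyclin-dependent kinases p57, was 1.25-fold higher at adjusted p = 0.045 and missed the threshold in 7 of 12 refits without 1 array, each untreated replicate among them (adjusted p up to 0.22). By parental copy, 1 of 13 paternally read genes was lower, and of 12 maternally read genes 2 were lower and 1 higher. The median log2 change over the 25 was -0.05, against -0.01 over all genes.

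Several classic imprinted genes did not pass in any comparison with untreated. PHLDA2, a maternally read brake on placental growth, gave log2 changes of 0.07, 0.17 and 0.01 under AP1510, TGF-alpha and heregulin (adjusted p = 0.92, 0.42 and 0.97). UBE3A, the ubiquitin ligase of Angelman syndrome, gave -0.10, -0.12 and -0.15 (adjusted p = 0.83, 0.50 and 0.48). The noncoding RNA MEG3 gave -0.02, -0.05 and 0.14 (adjusted p = 0.98, 0.81 and 0.52). Its paternally read neighbour DLK1, a Notch-like ligand, gave -0.14, -0.10 and 0.08 (adjusted p = 0.76, 0.64 and 0.78). The mean level of MEG3 was 5.05, below the limit of 5.37 for dim genes, and that of DLK1 was 5.71.

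**Figure D5:**
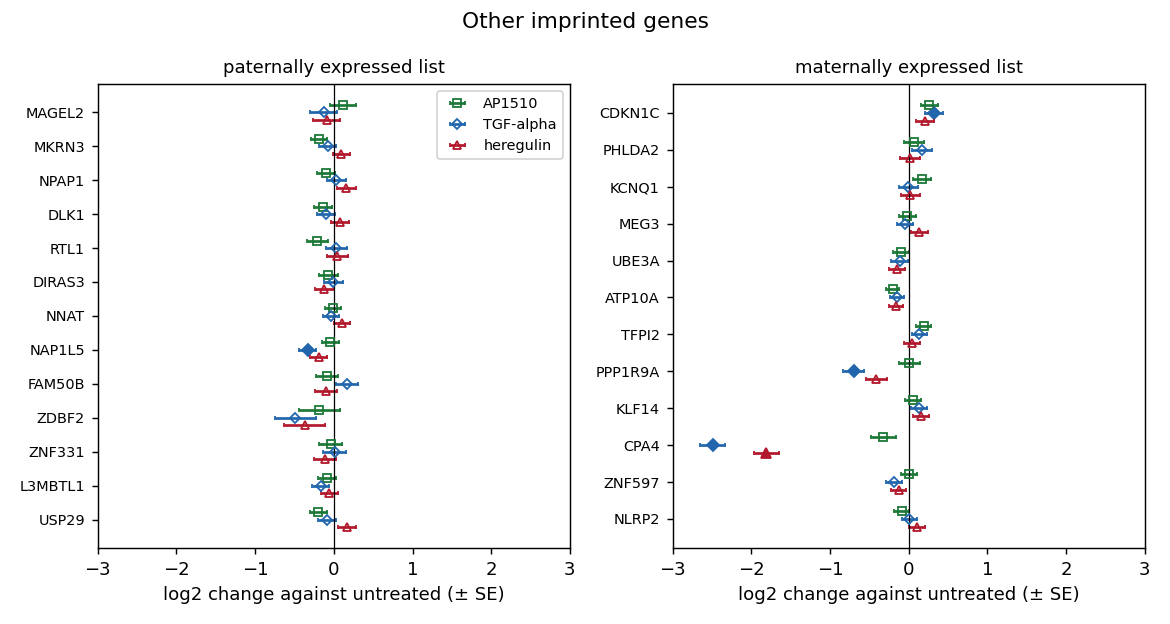
Log2 change against untreated for the 25 other measured imprinted genes, 13 read from the paternal and 12 from the maternal copy, under each ligand; bars are SE and filled points passed an adjusted p of 0.05. CPA4 lies farthest from 0 under TGF-alpha (-2.49) and heregulin (-1.81), and most other points lie close to 0.

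Genes that keep or remove imprint marks were all measured, 13 of 13. With heregulin limma called 0 of them, with 3 at an unadjusted p under 0.05, where 8.5% of all genes were called. With AP1510 it also called 0, with 1 at an unadjusted p under 0.05, where 1.47% of all genes were called. TGF-alpha called 3 higher and 3 lower, where 12.5% of all genes were higher and 13.4% lower. DNMT1, which copies DNA methylation after replication, was 2.44-fold higher (log2 change 1.29, adjusted p = 2.4e-08), and its partner UHRF1, which recruits it to newly copied DNA, was 1.67-fold higher (adjusted p = 7e-04). TET2, an enzyme that oxidises methyl groups, was 1.87-fold lower (adjusted p = 8.2e-06), and DNMT3A, which sets new marks, was 1.48-fold lower (adjusted p = 2.5e-04). TRIM28, the corepressor that ZFP57 brings to imprints, was 1.22-fold higher (adjusted p = 0.023) and TET3 1.21-fold lower (adjusted p = 0.038). Both of these last calls were lost in 4 of 12 refits without 1 array: TRIM28 in those lacking untreated replicates 1 and 3 and TGF-alpha replicates 2 and 3 (adjusted p up to 0.11), TET3 in those lacking untreated replicates 1 and 2 and TGF-alpha replicates 1 and 2 (up to 0.15).

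PEG10 belongs to a set of genes descended from retroelement gag sequences, of which 19 of 20 listed relatives were measured. Heregulin called 0 of the 19 with limma, with 3 at an unadjusted p under 0.05, where 8.5% of all genes were called. TGF-alpha called 4 of the 19, all lower, where 26% of all genes were called and 13.4% were lower. LDOC1, a small leucine zipper protein, was 1.66-fold lower (adjusted p = 1.1e-05). MOAP1, a partner of the death protein BAX, was also 1.66-fold lower (9.2e-06). PNMA1, a paraneoplastic antigen, was 1.37-fold lower (0.001) and RTL6 1.37-fold lower (0.017). Mean levels of the 19 ran from 3.10 to 8.89 with a median of 4.88, below the limit of 5.37 for dim genes. Nothing is read from these counts. The RTL6 call missed the threshold without untreated replicate 2 or TGF-alpha replicate 1 (adjusted p up to 0.088). AP1510 called PNMA6A alone, 1.30-fold lower at adjusted p = 0.038, where 1.47% of all genes were called. That call was lost in 9 of 12 refits, holding only where a heregulin array was left out (adjusted p up to 0.17).

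SGCE was set beside the other parts of the dystrophin and sarcoglycan complex, of which 8 of 12 were measured. Heregulin called 2, both lower, where 5.06% of all genes were lower: DTNB, the beta-dystrobrevin scaffold, 1.38-fold (adjusted p = 0.0052), and SGCB, beta-sarcoglycan, 1.32-fold (adjusted p = 0.015). The SGCB call missed the threshold without untreated replicate 3 or heregulin replicate 2 (adjusted p up to 0.062). Under AP1510 limma called 0 of the 8, with 1 at an unadjusted p under 0.05, where 1.47% of all genes were called. Under TGF-alpha it called 0, with 0 at that level, where 26% of all genes were called.

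NDN was set beside its relatives of the type II MAGE family, partners of ubiquitin ligases, of which 8 of 9 were measured. TGF-alpha called 2 lower, where 13.4% of all genes were lower: MAGED2, 1.53-fold (adjusted p = 5.8e-05), and MAGED1, 1.27-fold (adjusted p = 0.025). The MAGED1 call missed the threshold when untreated replicate 1, untreated replicate 2 or TGF-alpha replicate 1 was left out (adjusted p up to 0.14). Heregulin and AP1510 each called 0 with limma, with 2 and 0 at an unadjusted p under 0.05. Over all genes 8.5% and 1.47% were called in these comparisons.

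Relatives and receptor partners of GRB10 were measured in full, 6 of 6. TGF-alpha called 5 of them, 2 higher and 3 lower, where 26% of all genes were called. GRB14, the closest adaptor in function, was 1.88-fold higher (adjusted p = 3.3e-06) and the insulin receptor substrate IRS2 1.24-fold higher (0.017). IRS1 was 1.56-fold lower (8.5e-05), the HER2-binding adaptor GRB7 1.42-fold lower (9.6e-04) and the insulin receptor INSR 1.22-fold lower (0.041). Without TGF-alpha replicate 1 or 3 the IRS2 call was lost (adjusted p up to 0.088), and INSR missed in 6 of 12 refits (up to 0.20), each untreated replicate among them. Heregulin called GRB7 alone, 1.27-fold lower at adjusted p = 0.042, where 8.5% of all genes were called. That call was lost in 7 of 12 refits (up to 0.14), each untreated replicate among them. AP1510 called 0 of the 6 with limma, with 3 at an unadjusted p under 0.05, where 1.47% of all genes were called.

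The genes whose pattern lay nearest to PEG10 were found by the root mean square log2 difference over the 12 arrays, after taking each gene's own mean away. PEG10 itself varied by 1.13 on this measure. The nearest were SEMA3A (0.459), a secreted guidance protein, TLR6 (0.611), a receptor for bacterial lipopeptides, SLC2A12 (0.646), a sugar transporter, TINAGL1 (0.646), a matrix protein, and NQO1 (0.653), a quinone reductase. SGCE came 34th in this order (0.778) and MEST 181st (0.926). Since these genes were chosen for their likeness to PEG10, their changes against untreated are given as a description. SEMA3A was 2.80-fold lower with heregulin, and its log2 change was 0.35 with AP1510 and 0.13 with TGF-alpha. TLR6, SLC2A12 and NQO1 were 3.17-fold, 3.25-fold and 2.63-fold lower with heregulin and 2.39-fold, 2.59-fold and 1.95-fold lower with TGF-alpha, where PEG10 was 1.44-fold lower. TINAGL1 was 2.07-fold lower with heregulin and 1.20-fold lower with TGF-alpha.

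SGCE varied less, by 0.389 on the same measure, and its nearest genes were PRICKLE2 (0.0978), a planar polarity protein, FAM3C (0.118), a secreted cytokine-like protein, TRIM2 (0.136), a ubiquitin ligase, ITGA2 (0.136), a collagen receptor chain, and PGM2L1 (0.145), an enzyme of sugar phosphates. MEST came 109th (0.240). PEG10 came 18168th of the genes set against SGCE, since this measure counts size as well as shape. No other measured member was among the 5 genes nearest to PEG10 or to SGCE.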

How the data were processed

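RNA from 12 dishes was read on Affymetrix arrays. The authors deposited log2 intensities made with RMA, per the submitters' processing notes, with no version given; no build is named for the array's annotation. RMA equalises the arrays, so a shift shared by all genes would not show. Of 33297 probe sets, 19460 named 1 gene, 1754 several and 12083 none; the first class gave 18417 genes, each by its probe set of highest mean. limma 3.58.1 (R 4.3.3) fitted 4 groups together, with Benjamini-Hochberg adjustment over all genes within each of 6 comparisons, two-sided, threshold 0.05; intervals of 95% are not adjusted. PEG10 minus SGCE was tested by an exact permutation of the F statistic. The scripts were tested on simulated data. The number of arrays limits the precision. Groups came from the labels, and no batch is named.

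The imprinted genes and all gene lists were chosen with earlier results of these data known. Genes were named by rule: every member, up to 6 called genes of each list with the largest change, tested genes within 1 Mb of PEG10, and the 5 nearest in pattern to PEG10 and SGCE. Imprinted genes given as not passing (KLF14, PHLDA2, UBE3A, MEG3 and DLK1) were picked after their values were seen. Alternatives were a filter on dim genes, quantile normalization again, centring, other probe sets, fits of 2 groups, an intensity trend, array weights and leaving out each array. Probe sets without a listed gene were not used.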

Additional observations from a re-analysis of the deposited data

How the results depend on the processing

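Of 657 changes of single members recomputed over 20 other settings, 624 kept their direction and side of the threshold, 29 lost the call, 4 gained it and 0 reversed. Many of these outcomes were fixed or nearly fixed beforehand. Each member has 1 probe set, so the choice of other probe sets left its values as they were. Adding probe sets of several genes, or leaving out an array of a group not compared, could not move its log2 change. The calls of PEG10 under heregulin are counted too, so the tally does not measure stability. Counts moved as follows. With only the 2 groups compared, members called were 3 for heregulin against untreated and 2 for heregulin against AP1510. With quantile normalization again, other imprinted genes called under TGF-alpha were 2. Leaving out 1 array at a time, members called ran from 0 to 0 for AP1510 against untreated, 0 to 2 for TGF-alpha against untreated (0 without TGF-alpha replicate 1, 1 without untreated replicate 3), 3 to 5 for heregulin against untreated (3 without untreated replicate 2 or 3 or heregulin replicate 1), 1 to 2 for TGF-alpha against AP1510 (2 without heregulin replicate 1), 2 to 4 for heregulin against AP1510 (2 without AP1510 replicate 2 or heregulin replicate 1 or 2) and 3 to 4 for heregulin against TGF-alpha. Other imprinted genes called ran from 2 to 4 under TGF-alpha (2 when untreated replicate 1, untreated replicate 3 or TGF-alpha replicate 1 was left out) and 1 to 2 under heregulin (2 without untreated replicate 2). Neighbours of PEG10, an addition made after seeing the data, numbered 2 under AP1510 with quantile normalization again or an intensity trend; under heregulin they ran from 1 (only the 2 groups, or without untreated replicate 1 or 3 or heregulin replicate 2) to 3 (without untreated replicate 2). PEG10 minus SGCE gave an exact permutation p of up to 7.1e-04 in 14 refits; PEG10 was picked for its fall under heregulin, so these values say nothing about stability. No paired analysis was possible because the labels give no replicate numbers; those used here follow the order of the samples. The refits of the ZIM2 and PEG3 probe set without single arrays were also added after seeing the data. The cause of these changes was not tested. NDN lay too close to the dim end for a small change to be read.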
